A study of Mus musculus with 8 samples.

Results

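Mt1, Mt2, Slc30a1 and Mtf1, the core of the cellular response to zinc, were followed in MC38 tumors that had or had not been exposed to violet light. These 4 genes were chosen by name from the 24421 genes of the count table, and all 4 were among the 14468 genes that passed the filter on low counts. None of the 4 differed between photoconverted and control tumors beyond the spread between tumors, and the level of the metallothioneins varied more within each group than between the groups.

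Metallothioneins are small proteins rich in cysteine that bind zinc, copper and cadmium in the cytosol. When free zinc rises, the zinc finger transcription factor MTF1 binds short metal response elements in the promoters of Mt1, Mt2 and Slc30a1, and the product of Slc30a1, the transporter ZnT1, carries zinc out across the plasma membrane. Metallothionein genes are also known to be induced by glucocorticoids, by oxidants and by IL-6 through STAT3, so they report on several kinds of stress at once.

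RNA of whole tumors was sequenced from 4 photoconverted and 4 control tumors, each from its own mouse. All mice were 9-week-old female Kaede mice on the B6 background, which express a fluorescent protein that light converts from green to red, and all had received MC38 cells, a mouse colon adenocarcinoma line, under the skin. On day 10 the photoconverted tumors received 405-nm light for 3 min through the skin, the control tumors received none, and both were collected 5 h later. The comparison asks whether the light itself changes gene expression in the tumor, and in bulk tissue fewer cells of a type and less RNA per cell cannot be told apart.

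Total counts ranged from 12576615 to 35844417 per tumor. The share of counts on Rn45s, the precursor of ribosomal RNA, ranged from 2.70% to 35.7% and was above 10% in photoconverted tumor 4 and control tumors 2 and 4. Of all genes tested, 23.4% were higher and 21.0% lower in all 3 of these libraries than in any of the other 5 (44.4% in all), and 0 of the 4 members were either. Markers of colon epithelium were at or near 0, with Cdx2 at 0 counts in every tumor and the 7 markers together at 3.21 to 6.19 CPM (counts scaled to a common library size), so the tumor cells were not identified by them.

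All 4 members lay on the forward strand in mm10 (GRCm38). In the GENCODE annotation Mt2 (ENSMUSG00000031762.7) spans chr8:94172664-94173568 and Mt1 (ENSMUSG00000031765.8) spans chr8:94179082-94180327, with 5513 bases between them. Slc30a1 (ENSMUSG00000037434.7) spans chr1:191906767-191913247 and Mtf1 (ENSMUSG00000028890.13) spans chr4:124802104-124849800. The coding sequences of Mt1 and Mt2 are shown because their likeness bears on how reads could be assigned to one gene or the other. Each has 186 bases with 20 cysteine codons, and capitals mark the 38 bases that differ between them (79.6% identity).
Mt1 coding sequence: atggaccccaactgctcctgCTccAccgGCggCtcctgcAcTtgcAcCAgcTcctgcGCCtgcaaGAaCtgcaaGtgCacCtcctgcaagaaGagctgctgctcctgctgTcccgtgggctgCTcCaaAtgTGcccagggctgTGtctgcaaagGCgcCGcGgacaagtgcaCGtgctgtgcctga
Mt2 coding sequence: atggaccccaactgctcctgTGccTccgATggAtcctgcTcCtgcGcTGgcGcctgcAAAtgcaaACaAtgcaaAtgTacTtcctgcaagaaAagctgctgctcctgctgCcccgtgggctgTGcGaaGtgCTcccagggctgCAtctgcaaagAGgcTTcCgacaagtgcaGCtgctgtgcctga
The longest run of bases that both transcripts share is 20 bases long.

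The promoters are shown because 3 of the 4 members are known targets of the fourth. The core of the metal response element, TGCACNC or TGCGCNC, was searched on both strands from 250 bases before to 50 bases after the RefSeq start of each gene (GRCm38.p6), where all 4 members had an entry. Matches are in capitals, and a match on the reverse strand reads as its complement.
Mt1, chr8:94178839-94179088, forward strand: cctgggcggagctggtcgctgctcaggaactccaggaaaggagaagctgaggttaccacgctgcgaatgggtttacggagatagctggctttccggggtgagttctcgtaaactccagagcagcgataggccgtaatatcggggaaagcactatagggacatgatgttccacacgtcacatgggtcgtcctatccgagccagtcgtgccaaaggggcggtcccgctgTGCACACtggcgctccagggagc
Mt2, chr8:94172368-94172617, forward strand: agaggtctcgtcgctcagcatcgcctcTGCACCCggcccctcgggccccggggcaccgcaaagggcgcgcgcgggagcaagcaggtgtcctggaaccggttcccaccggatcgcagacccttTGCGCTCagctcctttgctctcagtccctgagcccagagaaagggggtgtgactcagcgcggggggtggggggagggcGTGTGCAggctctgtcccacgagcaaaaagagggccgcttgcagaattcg
Slc30a1, chr1:191906531-191906780, forward strand: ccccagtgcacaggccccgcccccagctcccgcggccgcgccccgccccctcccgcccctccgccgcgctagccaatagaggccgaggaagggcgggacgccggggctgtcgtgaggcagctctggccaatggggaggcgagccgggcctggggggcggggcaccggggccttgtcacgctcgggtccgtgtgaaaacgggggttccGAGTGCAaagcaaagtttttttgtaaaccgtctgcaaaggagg
The short stretches with matches after the start were these.
Mt1, chr8:94179089-94179118, forward strand: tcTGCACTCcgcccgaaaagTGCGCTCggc
Mt2, chr8:94172618-94172647, forward strand: ggtcGTGCGCAggcccaggggcgtgtgctg
Slc30a1, chr1:191906788-191906817, forward strand: aagacggcggacgcctccgggccGAGCGCA
In these 300-base windows Mt1 had 3 matches, Mt2 had 4, Slc30a1 had 2 and Mtf1 had 0. Of all 32851 promoters of that length, 25.7% had at least 1 match, 7.11% had at least 2, 1.97% had at least 3 and 0.517% had at least 4. These promoters were not matched to the members for base composition. The GC content of the windows was 60.7% for Mt1, 67.7% for Mt2, 73.0% for Slc30a1 and 66.3% for Mtf1. The matches nearest the start on the upstream side were at -23 to -17 in Mt1, at -50 to -44 in Mt2 and at -43 to -37 in Slc30a1. These positions and counts rest on the RefSeq starts. In GENCODE Mt2 begins at base 94172664, after the RefSeq start at 94172618, so its match after the RefSeq start lies before the GENCODE one. Windows at other starts were not searched, and matches outside the windows were not counted. No match in Mtf1 says only that these letters are not in this window.

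Metallothionein mRNA was abundant in every tumor, whereas the exporter and the transcription factor were expressed at far lower levels. Per kilobase of annotated exon, Mt2 had 279.5 ± 75.0 CPM and Mt1 had 167 ± 33.0 CPM (SD, n = 8), which placed them at the 98.5th and 97.6th percentiles of the 13898 genes tested with a known length. Slc30a1 had 4.08 ± 0.801 and Mtf1 had 2.85 ± 0.264 CPM per kilobase (SD, n = 8), at the 36.0th and 29.4th percentiles. Per base of all annotated exons (5244 for Slc30a1 and 7975 for Mtf1) the level of Slc30a1 was above that of Mtf1 in all 8 tumors (exact permutation test by sign flips, two-sided, p = 0.00781, which is as low as 8 tumors can reach), an order that rests on these lengths. The order of Mt1 and Mt2 depended on the length used. With all annotated exons, Mt2 was higher per base in 8 of 8 tumors, and with the length of 1 main transcript each (549 bases for Mt1 and 511 for Mt2), Mt1 was higher in 7 of 8 tumors (exact permutation test by sign flips, two-sided, p = 0.00781 and p = 0.0234). The annotated exons of Mt1 cover all 1246 bases of its gene, introns of the main transcript included, and those of Mt2 cover 588 of 905. The first order and the level of Mt1 per kilobase above rest on that long Mt1 length. The remaining metallothionein genes were barely detected. Mt3, known from brain, had 0 to 4 counts per tumor, and Mt4, known from stratified epithelia, likewise had 0 to 4 counts, where a count of 0 allows up to 0.321 CPM in the shallowest library.

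All 4 members had a positive log2 fold change of photoconverted over control tumors, as had 46.8% of all genes tested. By edgeR's quasi-likelihood method 0 of the 4 passed an adjusted p of 0.05, where 0% of all genes tested did. At an unadjusted p of 0.05 also 0 of the 4 passed, where 2.23% of all genes tested did, 1.65% of them higher and 0.574% lower. DESeq2's Wald test, which called 0.141% of its genes at an adjusted p of 0.05, and limma called 0 of the 4 as well. For 0 of the 4 did all photoconverted tumors lie on 1 side of all controls, against 1.33% of all genes tested.

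Mt1 had 249.98, 188, 223 and 181 CPM in photoconverted tumors 1 to 4. In control tumors 1 to 4 it had 226, 175, 149 and 269.6 CPM. Both the highest and the lowest tumor were controls, and the 4 photoconverted tumors lay between them. Photoconverted tumors averaged 211 ± 32.0 CPM and controls 205 ± 53.7 CPM (SD, n = 4 each). This gave a log2 fold change of 0.040 (standard error 0.20, 95% interval -0.41 to 0.49, adjusted p = 0.999 in edgeR), so these tumors leave room for a change between 0.753-fold and 1.40-fold.

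Mt2 had 209, 145, 205 and 126 CPM in photoconverted tumors 1 to 4. Control tumors 1 to 4 had 219, 120.3, 110.4 and 180.2 CPM of Mt2. Again a control tumor was the highest and another the lowest. The means were 171 ± 42.1 and 157.5 ± 51.3 CPM (SD, n = 4 each). The log2 fold change of Mt2 was 0.12 (standard error 0.26, 95% interval -0.46 to 0.70, adjusted p = 0.999 in edgeR). A further fit took only the 5 tumors with Rn45s under 10% of counts, photoconverted tumors 1 to 3 (9.65% in tumor 2) and control tumors 1 and 3. With 3 against 2 tumors, an exact permutation test cannot give a p under 0.1. In this fit edgeR called 0.275% of the genes tested at an adjusted p of 0.05. The log2 fold change was 0.23 for Mt1 and 0.17 for Mt2 (adjusted p = 0.707 and 0.864 in edgeR).

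**Figure D1:**
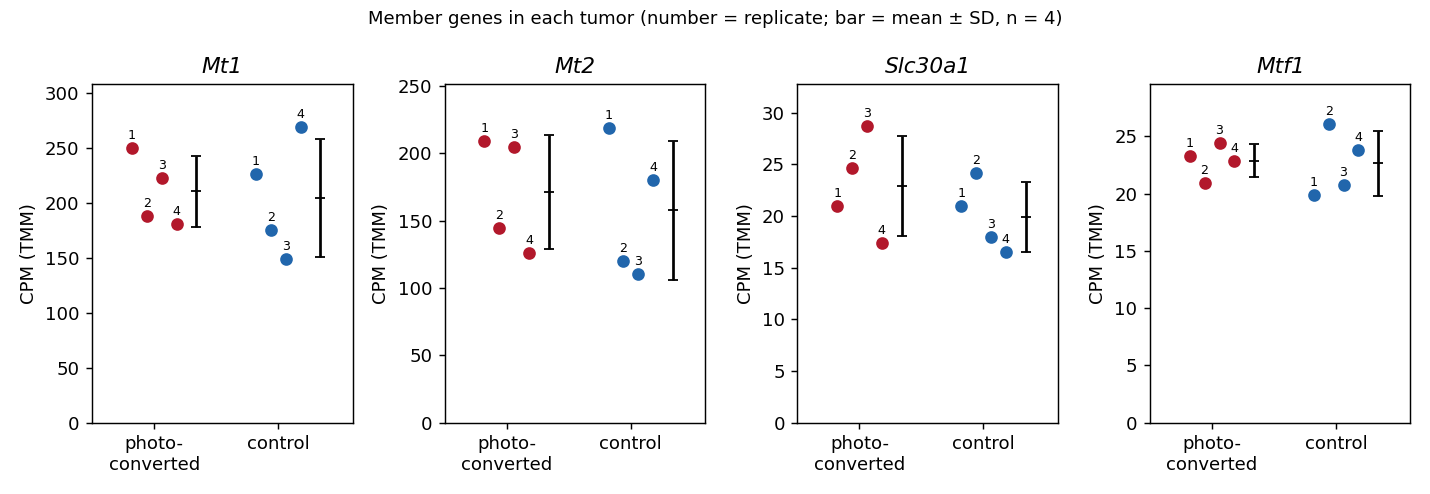
CPM after TMM normalization (y axis, from 0) of Mt1, Mt2, Slc30a1 and Mtf1 in each photoconverted (red) and control (blue) tumor. Points carry the replicate number and bars give the mean ± SD (n = 4). The groups overlap for all 4 genes, with control tumor 4 highest for Mt1 (269.6 CPM) and control tumor 1 highest for Mt2 (219 CPM).

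The summed level of Mt1 and Mt2, which does not depend on how reads are split between the 2 genes, was also compared. Photoconverted tumors 1 to 4 had a sum of 459, 332.5, 428 and 307 CPM, against 445, 295.5, 259 and 449.8 CPM in control tumors 1 to 4. Each group thus held 2 of the 4 highest and 2 of the 4 lowest tumors. The mean difference was 0.097 on the log2 scale (two-sided exact permutation test, p = 0.657, against 0.0286 as the lowest that this design can give). In pairs of the same number the photoconverted tumor was higher by 0.046, 0.17 and 0.72 in pairs 1 to 3, and pair 4 differed by -0.55 (exact permutation test by sign flips, two-sided, p = 0.625). In all, metallothionein reads made up between 0.02195% and 0.05295% of the counts of a tumor.

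Mt1 and Mt2 varied together from tumor to tumor. Over 8 tumors their log2 CPM values had a Pearson r of 0.877 and a Spearman rho of 0.833 (exact permutation p = 0.00933 and p = 0.0154), with Benjamini-Hochberg adjusted p-values of 0.0933 and 0.154 over the 10 relations examined in the same permutation tests. As seen in the plot of Mt2 against Mt1, the tumors lay in 2 sets of 4, each with 2 photoconverted and 2 control tumors, and 4 tumors are too few for an r within a set. The r was 0.954 without the 2 tumors farthest from the median of Mt1 and 0.877 between deviations from the group means. Without control tumor 4 alone it was 0.951, and only then was the adjusted p under 0.05 (0.00992 in the exact permutation test). Of the other 14467 genes tested, 17 had a higher r with Mt1 than Mt2 had, Mt2 being the neighboring gene. The 5 genes closest to Mt1 in pattern, leaving out the members, were Nufip1 (r = 0.962), Ndufa1, a subunit of respiratory complex I (r = 0.958), Zfp623 (r = 0.956), BC039966 (r = 0.930) and Hsbp1, a binding protein of heat shock factor 1 (r = 0.926). For Mt2 they were Itpr2, an inositol trisphosphate receptor (r = 0.948), Ino80, a chromatin remodeler (r = 0.937), and Parp6 (r = 0.934). These values over 8 tumors are descriptions, picked as the highest among all genes tested.

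The split between the 2 genes differed between libraries more than between groups. Of the counts on Mt1 plus Mt2, Mt1 took 54.4%, 56.5%, 52.15% and 59.0% in photoconverted tumors 1 to 4, and its share in control tumors 1 to 4 was 50.8%, 59.3%, 57.4% and 59.9%. Exact (Clopper-Pearson) 95% intervals, which cover counting error only, were 49.99% to 51.6% in control tumor 1 and 58.8% to 61.05% in control tumor 4, the lowest and highest tumors. The group means were 55.5% ± 2.92 and 56.85% ± 4.19 (SD, n = 4 each; two-sided exact permutation test, p = 0.629). The 3 libraries with an Rn45s share above 10% had the 3 highest Mt1 shares, 59.0% to 59.9%, and the other 5 had 50.8% to 57.4%. The part of library composition in this split was not tested.

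**Figure D2:**
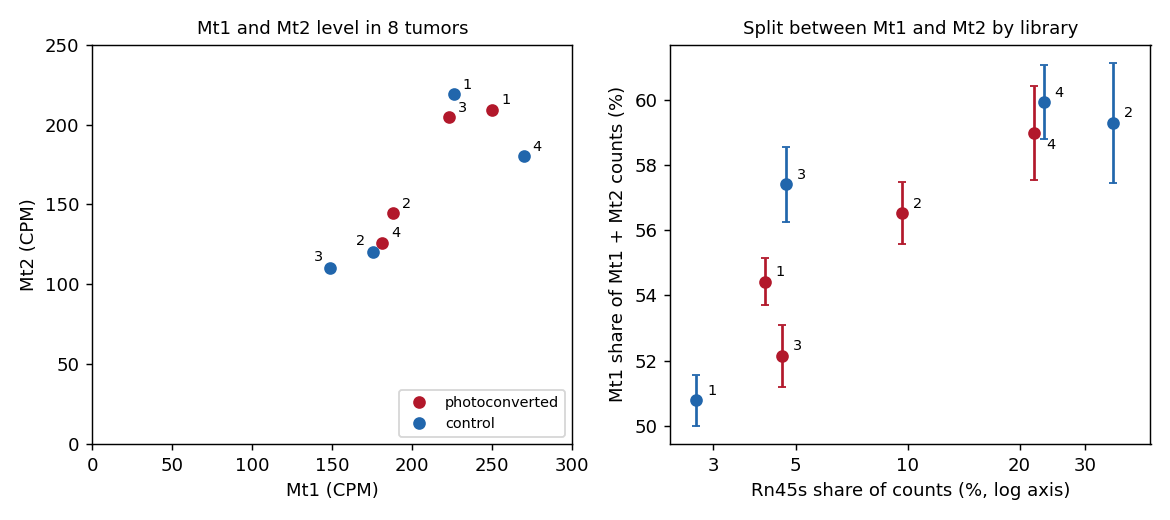
Left, CPM of Mt2 (y axis) against CPM of Mt1 (x axis) in 8 tumors (red, photoconverted; blue, control; numbers are replicates). Right, percent of Mt1 plus Mt2 counts that fell on Mt1 (y axis, not from 0, with exact 95% intervals) against the Rn45s share of counts (x axis, log scale). The 3 libraries at the right, with Mt1 shares of 59.0% to 59.9%, lie above the other 5.

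Slc30a1, which encodes the zinc exporter ZnT1, had the largest difference of the 4 members, and it too stayed within the spread between tumors. It had 21.0, 24.6, 28.7 and 17.4 CPM in photoconverted tumors 1 to 4 against 20.9, 24.2, 17.95 and 16.5 CPM in control tumors 1 to 4. The highest value was that of photoconverted tumor 3, and photoconverted tumor 4 lay below 3 of the 4 controls. Its log2 fold change was 0.21 (standard error 0.19, 95% interval -0.22 to 0.63, adjusted p = 0.999 in edgeR). Within same-numbered pairs the photoconverted tumor was higher in 4 of 4, by 0.0042, 0.026, 0.67 and 0.080 on the log2 scale (exact permutation test by sign flips, two-sided, p = 0.125, which is as low as 4 pairs can reach). Most of this came from pair 3, and without photoconverted tumor 3 the log2 fold change was 0.085. Without photoconverted tumor 4 it was 0.32, and in the 5 tumors with a low Rn45s share it was 0.35 (unadjusted p = 0.0638 and adjusted p = 0.4995 in edgeR), where 6.31% of all genes tested were higher at an unadjusted p of 0.05.

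Photoconverted tumor 3 also had the highest summed markers of skeletal muscle, fat, skin, neutrophils and macrophages. The 6 skeletal muscle markers summed to 329, 540, 1054 and 124 CPM in photoconverted tumors 1 to 4 and to 232, 254, 324 and 125 CPM in controls, with Acta1 the highest. The 6 adipocyte markers reached 126 CPM in that tumor, against 19.1 to 62.9 CPM in the other 7, and the 6 keratinocyte markers reached 19.5 CPM, against 1.03 to 17.3 CPM. Over 8 tumors the log2 muscle sum had an r of 0.858 with Slc30a1 and -0.0811 with Mt1. The other marker sums also had a positive r with Slc30a1, at 0.817 for adipocytes, 0.764 for neutrophils, 0.760 for keratinocytes, 0.741 for macrophages, 0.628 for epithelium and 0.344 for fibroblasts, all given as descriptions. The part of these cells in the Slc30a1 values was not tested. The 3 genes closest to Slc30a1 in pattern were Tmtc1 (r = 0.977), Pdzd2 (r = 0.976) and Plac9b (r = 0.968).

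Mtf1 was the steadiest member. Photoconverted tumors 1 to 4 had 23.3, 21.0, 24.4 and 22.8 CPM of Mtf1, against 19.9, 26.1, 20.8 and 23.8 CPM in control tumors 1 to 4. Its highest level was 1.31 times its lowest over the 8 tumors, compared with 1.81 times for Mt1, 1.98 times for Mt2 and 1.74 times for Slc30a1. Among the 500 genes of the most similar level, 12.6% had a smaller SD of log2 CPM than Mtf1, whereas 84.4% had a smaller SD than Mt2 among those of its own level. For Mtf1 the log2 fold change was 0.018 (standard error 0.13, 95% interval -0.28 to 0.31, adjusted p = 0.999 in edgeR), and it was 0.17 in the 5 tumors with a low Rn45s share (adjusted p = 0.652 in edgeR). The 3 genes closest to Mtf1 in pattern were 6330549D23Rik (r = 0.974), Ppip5k1, an inositol pyrophosphate kinase (r = 0.936), and Ulk4 (r = 0.931).

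The level of the transcription factor and that of its targets did not vary together in a way that these tumors could show. Mtf1 had an r of 0.186 with Mt1, -0.0632 with Mt2 and 0.256 with Slc30a1 over 8 tumors (exact permutation p = 0.658, p = 0.881 and p = 0.535, each with an adjusted p of at least 0.916). Without the 2 tumors farthest from the median of Mt1, of Mt2 and of Slc30a1 in turn, the r values were -0.245, -0.0333 and 0.273. Spearman's rho was 0.0952, -0.119 and 0.286 for these pairs (exact permutation p = 0.840, p = 0.793 and p = 0.501). Slc30a1 had an r of -0.0119 with Mt1 and 0.250 with Mt2 (exact permutation p = 0.978 and p = 0.541), and a rho of -0.143 and 0.167 (exact permutation p = 0.752 and p = 0.703). Without the 2 tumors farthest from the median of Mt1 and of Mt2, in turn, the r was 0.0956 and 0.136.

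Against the log2 Rn45s share, r was -0.142 for Mt1, -0.543 for Mt2, -0.224 for Slc30a1 and 0.619 for Mtf1 (exact permutation p = 0.732, p = 0.156, p = 0.584 and p = 0.107). The rho values were -0.310, -0.690, -0.238 and 0.548 (exact permutation p = 0.462, p = 0.0694, p = 0.582 and p = 0.171), and none passed after adjustment. Without the 2 tumors farthest from the median of the gene itself, r was -0.901 for Mt1, -0.797 for Mt2, 0.197 for Slc30a1 and 0.123 for Mtf1, so the values for Mt1, Slc30a1 and Mtf1 rested on which tumors were included. With the Rn45s share as a covariate, the log2 fold change of Mt2 was 0.048 and that of Mtf1 was 0.050.

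The zinc transporters around these genes were then read from lists of the whole families. The SLC30 family moves zinc out of the cytosol, and 6 of its 10 genes were tested. None of the 6 had an adjusted or an unadjusted p under 0.05 in edgeR, 4 had a positive and 2 a negative log2 fold change, and the median was 0.022 against -0.014 for all genes tested. Slc30a4, which loads zinc into vesicles, was the most abundant of them at 329, 261, 302 and 196 CPM in photoconverted tumors 1 to 4 and 259, 182, 270.5 and 184 CPM in controls. Its log2 fold change of 0.28 had a 95% interval from -0.17 to 0.73. Slc30a5, a transporter of the early secretory pathway, had a log2 fold change of 0.042 (95% interval -0.18 to 0.26).

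The SLC39 family moves zinc into the cytosol, and 11 of its 14 genes were tested. In edgeR 0 of them passed an adjusted p of 0.05, and 1 passed an unadjusted p of 0.05, being higher in photoconverted tumors as were 1.65% of all genes tested. The sign was positive for 2 and negative for 9 of the 11, where 46.8% of all genes tested were positive, and the median log2 fold change was -0.055. Of the negative genes, Slc39a1, Slc39a3, Slc39a4, Slc39a7, Slc39a11 and Slc39a13 were higher in all 3 libraries with Rn45s above 10%, 2 of them controls. Their log2 fold changes ran from -0.41 to -0.055, and from -0.27 to 0.013 with the Rn45s share as a covariate. The part of library composition in these signs was not tested. The gene with the unadjusted p was Slc39a14, which encodes ZIP14, an importer of zinc and of iron that is known to be induced by IL-6. Photoconverted tumors 1 to 4 had 115, 106, 119 and 80.4 CPM of Slc39a14, against 81.0, 75.6, 83.5 and 79.0 CPM in control tumors 1 to 4. Photoconverted tumors 1 to 3 were thus above every control, and photoconverted tumor 4 lay among the controls. Slc39a14 was lower in all 3 libraries with Rn45s above 10%, photoconverted tumor 4 and control tumors 2 and 4, than in any other. The part of library composition in its values was not tested either. Its log2 fold change was 0.40 (standard error 0.14, unadjusted p = 0.0159, adjusted p = 0.999 in edgeR), and 0.36 with the Rn45s share as a covariate. With the replicate number as a block, where 6.01% of all genes tested passed an unadjusted p of 0.05, that of Slc39a14 was 0.00938 and the adjusted p was 0.674 in edgeR. In the 5 tumors with a low Rn45s share it was 0.46 (adjusted p = 0.158 in edgeR). Slc39a3 and Slc39a4, 2 other importers, had log2 fold changes of -0.29 (95% interval -0.77 to 0.19) and -0.41 (95% interval -1.15 to 0.32).

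**Figure D3:**
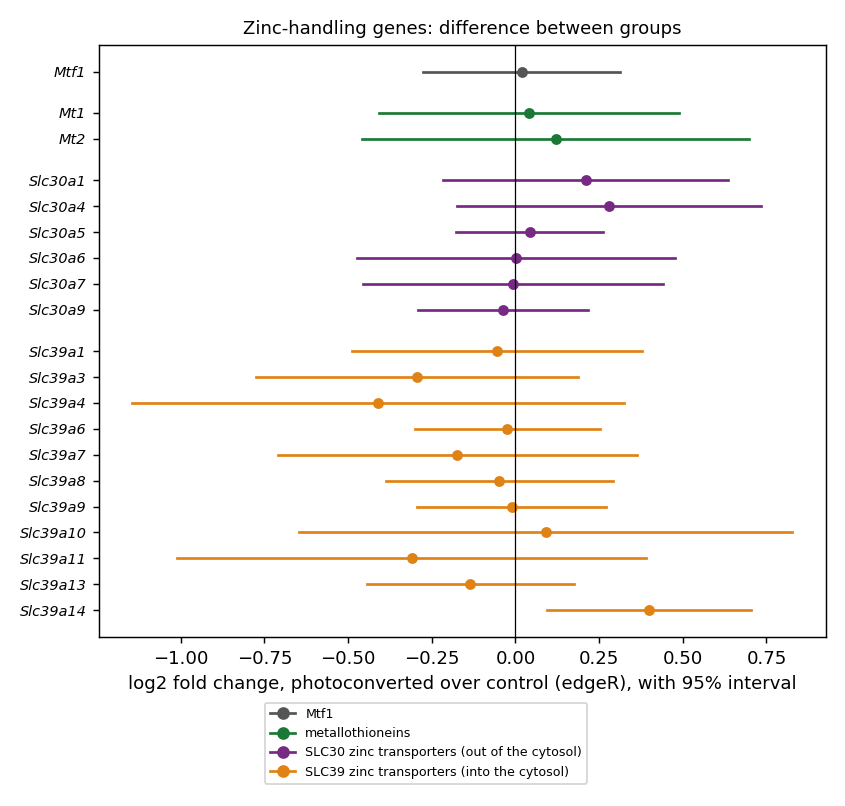
Log2 fold change of photoconverted over control tumors in edgeR (x axis, dots) with its 95% interval (lines) for Mtf1 (gray), the 2 metallothioneins tested (green), 6 SLC30 genes (purple) and 11 SLC39 genes (orange). All intervals cross 0 except that of Slc39a14, which runs from 0.094 to 0.70 before any adjustment for multiple tests.

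Metallothioneins also bind copper, and the genes of copper handling were as little changed. All 8 were tested, 0 had an adjusted or an unadjusted p under 0.05, and the log2 fold changes ran from -0.23 for Ccs, the copper chaperone of superoxide dismutase, to 0.21 for Atox1, the chaperone that serves the copper pumps. Atp7a, one of those pumps, averaged 50.5 ± 8.74 CPM with light and 46.3 ± 12.9 CPM without (SD, n = 4 each).

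Genes that answer to oxidants and heavy metals, mostly targets of NRF2, did not separate the groups, and Hmox1 among them had much the same pattern across tumors as the metallothioneins. Of the 8 tested, 0 had an adjusted or an unadjusted p under 0.05 in edgeR, 5 had a positive and 3 a negative log2 fold change, and the median was 0.059. Hmox1, heme oxygenase 1, measured 409.6, 329, 405.5 and 288 CPM in photoconverted tumors 1 to 4 and 374, 209, 228.5 and 425 CPM in control tumors 1 to 4. As with Mt1, control tumor 4 was the highest, and control tumors 2 and 3 were the lowest. Over 8 tumors Hmox1 had an r of 0.903 and a rho of 0.952 with Mt1, and an r of 0.872 without the 2 tumors farthest from the median of Mt1. Its r with Mt2 was 0.900. Over the 8 genes of the list r with Mt1 had a median of 0.555 and ran from 0.146 for Nqo1 to 0.903 for Hmox1. Sqstm1 (0.189) and Txnrd1 (0.279) also had a low r. Over all genes tested the median was 0.0103, and 5% of single genes lay above 0.541. These are descriptions over 8 tumors of both groups that share library, depth and composition, and Hmox1 was singled out after its value was seen. Srxn1, sulfiredoxin, and Txnrd1, thioredoxin reductase, had log2 fold changes of 0.37 (95% interval -0.069 to 0.81) and 0.14 (95% interval -0.20 to 0.47).

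**Figure D4:**
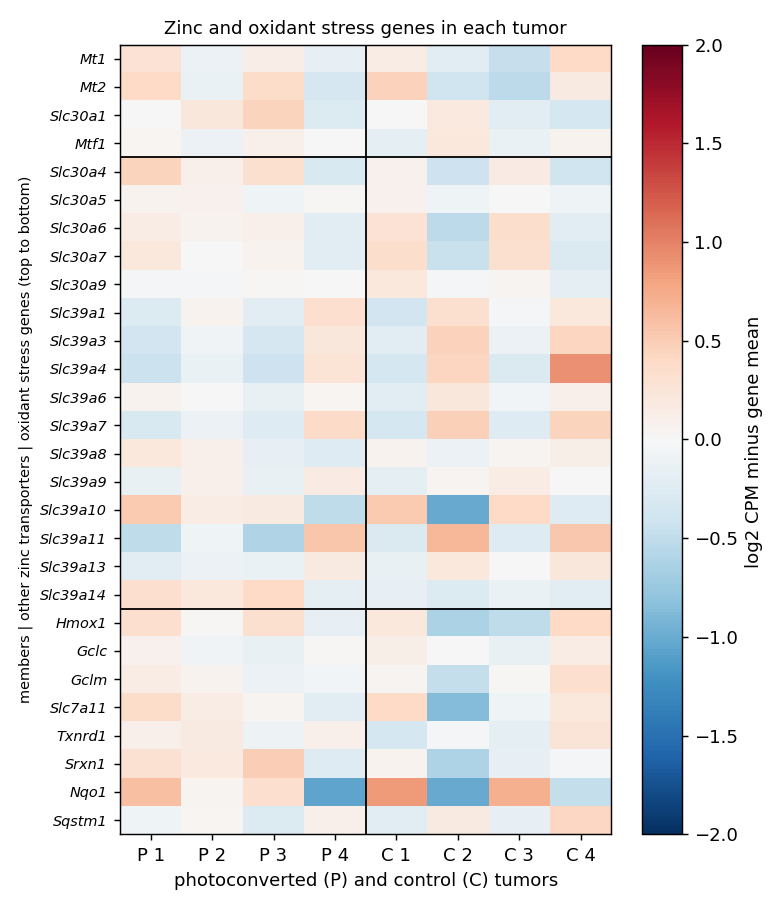
Log2 CPM relative to the 8-tumor mean of the gene (color) for the 4 members, 16 other zinc transporters tested and 8 oxidant stress genes (rows), in photoconverted (P) and control (C) tumors (columns). Mt1, Mt2 and Hmox1 are high in photoconverted tumors 1 and 3 and control tumors 1 and 4, whereas Slc39a7 is high in photoconverted tumor 4 and control tumors 2 and 4.

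IL-6 is a known inducer of metallothioneins, and 0 of 8 STAT3 and acute phase genes, all tested, passed an adjusted p of 0.05 in edgeR. All 8 had a positive log2 fold change, as had 46.8% of all genes tested, with a median of 0.84. At an unadjusted p of 0.05, 4 were higher in photoconverted tumors in edgeR, against 1.65% of all genes tested. The 3 with the smallest p were the cytokine Il6 (log2 fold change 2.73, unadjusted p = 0.00442), Socs3, the feedback inhibitor of STAT3 (0.84, unadjusted p = 0.00754), and Stat3 itself (0.40, unadjusted p = 0.0139), all 3 at 0.999 after adjustment in edgeR. Stat3 had 211, 221.5, 241 and 176 CPM in photoconverted tumors 1 to 4 and 137, 173, 170.2 and 161 CPM in controls, with no overlap, as in 0.684% of all genes tested. Il6 was past the threshold without photoconverted tumor 4 (adjusted p = 0.0390 in edgeR) and in the 5 tumors with a low Rn45s share (adjusted p = 0.0195 in edgeR). Both fits leave out photoconverted tumor 4, whose Il6 of 0.34 CPM lay among the controls (0.21 to 0.89 CPM). The fit on 5 tumors keeps only 2 controls. The summed level of 6 neutrophil markers was 86.3, 104, 133 and 44.8 CPM in photoconverted tumors 1 to 4 and 36.0 to 59.0 CPM in controls. Of the control sums, Mmp9 gave 18.5 to 31.4 CPM, and the log2 fold change of Mmp9 was 0.21. The other neutrophil markers had log2 fold changes of 2.62 for S100a8, 2.53 for S100a9, 2.07 for Cxcr2, 1.54 for Retnlg and 0.88 for Csf3r. Each of these had an unadjusted p under 0.05 and an adjusted p of 0.999 in edgeR. DESeq2's Wald test, which called 0.141% of its genes, called S100a8 and S100a9 (adjusted p = 0.0499 and 0.0279). Photoconverted tumors 3, 2 and 1, in this order, had the highest neutrophil sum, Stat3 and Socs3 of all 8 tumors. Their Socs3 was 204.5, 170 and 152 CPM. Control tumor 1 had the highest neutrophil sum of the controls and the lowest Stat3 (137 CPM) and Socs3 (61.2 CPM) of all 8 tumors. The part of neutrophils in the values of these genes was not tested. Over 8 tumors the genes of this list had a median r of 0.0837 with Mt1, and Stat3 had an r of 0.0331.

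Of 8 glucocorticoid response genes, all tested, 6 had a positive and 2 a negative log2 fold change, where 46.8% of all genes tested were positive. The median was 0.23. The 2 negative ones were Fkbp5 (-0.21) and Tsc22d3 (-0.15). In edgeR 2 of the 8 were higher at an unadjusted p of 0.05, against 1.65% of all genes tested, and 0 passed after adjustment. Those 2 higher genes were Errfi1, an inhibitor of EGF receptor signaling, and Dusp1, a MAP kinase phosphatase, both of which also answer to other signals. Errfi1 had 109, 84.9, 130.4 and 50.2 CPM in photoconverted tumors 1 to 4 and 38.1, 37.9, 30.5 and 49.9 CPM in controls (log2 fold change 1.26, adjusted p = 0.999 in edgeR, 0.0285 in DESeq2 and 0.0229 in edgeR on the 5 tumors with a low Rn45s share). Sgk1, a kinase induced by glucocorticoids, had 186 ± 15.6 and 160 ± 11.5 CPM (SD, n = 4 each), with a log2 fold change of 0.22 (unadjusted p = 0.0766 in edgeR).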

How the data were processed

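RNA-seq of 8 tumors was analysed, and groups and replicate numbers came from the sample labels. The deposited tables hold raw counts by gene symbol and normalized signal values, which equaled the counts divided by 1 size factor per tumor. The submitters' processing notes name CASAVA, FastQC, Trim Galore, HISAT2, featureCounts, DESeq2 and mm10, without versions, and the annotation and the strand setting used for counting are not given in the sources used here. The labels name a SMARTER stranded kit and the methods a TruSeq one. All columns were used, and no 2 libraries of the same group agreed within sampling noise.

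Counts were tested with edgeR 4.0.16 in R 4.3.3 (TMM, filterByExpr, glmQLFit, glmQLFTest, Benjamini-Hochberg over 14468 genes, threshold 0.05), after tests on simulated data. Log2 CPM used a prior count of 2. DESeq2 1.42.0 and limma 3.58.1 (log2 of normalized values plus 1) were alternatives. Exact permutation tests used Python 3.11.15 with numpy 2.4.6. Exon lengths were those of GENCODE vM21 and promoters those of RefSeq. With 12576615 to 35844417 counts a tumor, precision was low for scarce genes such as Mt3.

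The members and lists were chosen with earlier results of these data known. The rule named the members, at most 3 genes per list by smallest p, and the highest or undetected markers. It also named the 5 genes (3 for members other than Mt1) with the highest r with a member. Beyond this rule, Slc39a7, Slc39a10 and the other genes singled out by Rn45s share were named after their values were seen. So were Fkbp5 and Tsc22d3, for their negative sign. The neutrophil markers other than Mmp9 were also named beyond the rule, to stand beside Mmp9. The replicate numbers were taken to pair the tumors, which is an assumption. Deviations from the group means correlated across genes with an r of 0.597, 0.107, 0.407 and 0.623 in pairs 1 to 4. The mean between other numbers was -0.134, but centering within groups makes it negative when the same-number values are positive. It is therefore no separate evidence of pairing. Only 5 tumors correlated best with their own number. Rn45s shares (photoconverted, then control) were 4.14% and 2.70% in pair 1 and 9.65% and 35.7% in pair 2. They were 4.60% and 4.70% in pair 3 and 21.9% and 23.2% in pair 4. The part of library composition in these r values was not tested. The labels state no pairing.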

Additional observations from a re-analysis of the deposited data

How the results depend on the processing

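Over 17 alternatives of the fit (test, normalization, filter, robust dispersion, replicate block, Rn45s as covariate or removed, 5 tumors, each tumor left out), 0 called any of the 4 members, with adjusted p-values from 0.4995 for Slc30a1 to 1.00. The log2 fold change of Slc30a1 was positive in all 17. With the replicate block it was 0.20 for Slc30a1, 0.066 for Mt1, 0.14 for Mt2 and 0.027 for Mtf1, and the pairing changed no call. The count of genes past the threshold was 0 in edgeR, 24 in DESeq2's Wald test, 42 in the 5 tumors with a low Rn45s share, and 0 to 11 with each tumor left out, where 11 was without photoconverted tumor 4. With each tumor left out the log2 fold change ranged from -0.087 to 0.20 for Mt1, from -0.018 to 0.32 for Mt2 and from -0.040 to 0.091 for Mtf1 and from 0.085 to 0.32 for Slc30a1, the difference in Mt1 share from -3.36 to -0.211 percentage points, and the summed metallothionein difference from -0.050 to 0.22. The difference in Mt1 share was -1.335 percentage points and became 0.27 in the 5 tumors. Correlations ranged from 0.824 to 0.951 for Mt1 with Mt2, from -0.311 to 0.388 for Mt1 with Slc30a1, from -0.0841 to 0.503 for Mt1 with Mtf1, from 0.015 to 0.422 for Mt2 with Slc30a1, from -0.346 to 0.286 for Mt2 with Mtf1 and from 0.0635 to 0.435 for Slc30a1 with Mtf1. With the Rn45s share they ranged from -0.481 to 0.047 for Mt1, from -0.846 to -0.402 for Mt2, from -0.501 to -0.0246 for Slc30a1 and from 0.408 to 0.782 for Mtf1. The causes were not tested. With 4 tumors a group, the interval for Mt2 still holds changes up to 1.62-fold.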

Other observations

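A description chosen after the data were seen sets the 3 libraries with an Rn45s share above 10% (photoconverted tumor 4 and control tumors 2 and 4) beside the other 5. Of the 11 SLC39 genes tested, 6 (Slc39a1, Slc39a3, Slc39a4, Slc39a7, Slc39a11 and Slc39a13) were higher in all 3 libraries than in any of the other 5, and 2 (Slc39a10 and Slc39a14) were lower, where 23.4% and 21.0% of all genes tested were. Slc39a7, which releases zinc from the endoplasmic reticulum, had 264, 281 and 276 CPM in these 3 libraries and 159 to 187.5 CPM in the others. Of the 6 SLC30 genes, 0 were higher and 3 (Slc30a4, Slc30a6 and Slc30a7) were lower. Slc39a10, an importer of the plasma membrane, had 35.1, 24.7 and 41.75 CPM in these 3 libraries and 55.0 to 71.75 CPM in the others. In the copper list 4 of 8 genes were higher (Atp7b, Ccs, Cox17 and Sco1) and 3 were lower (Slc31a1, Atp7a and Atox1). Of 8 oxidant stress genes 1 was higher (Sqstm1) and 1 lower (Nqo1), of 8 glucocorticoid response genes 2 were higher (Fkbp5 and Per1) and 0 lower, and of 8 STAT3 and acute phase genes 0 were higher and 3 lower (Saa3, Osmr and Il6). The members Mt1, Mt2, Slc30a1 and Mtf1 overlapped between the 2 kinds of library.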
